A study of Homo sapiens with 59 samples.

Results

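The control cultures of a study of amino acid restriction in Jurkat cells are described here: 24 of its 59 bulk RNA-seq libraries, in 5 control groups. Jurkat is an established human T cell leukaemia line. In the study, cells were grown with 1 essential amino acid lowered to 25% and were collected at day 3, giving 7 restricted groups of 5 libraries, 1 for each of histidine, methionine, phenylalanine, tryptophan, valine, leucine and isoleucine. The histidine, methionine, phenylalanine and tryptophan experiments each had 5 control libraries of their own, and the 3 branched-chain amino acids (isoleucine, leucine and valine) shared 4 control libraries, numbered 1, 3, 4 and 5. All libraries share the cell line and the time point, and the labels give each control group by the name of its amino acid only, without the composition of its medium. Whether replicate libraries are separate cultures is not stated, so the spread given below may be technical.

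The phenylalanine and branched-chain controls (9 libraries) were set against the histidine, methionine and tryptophan controls (15 libraries). This division was chosen by measured values, with HSPA5 and TRIB3 as its markers, so every difference between the 2 sets is a description and carries no test. Values are in CPM, normalised counts per 1000000: each library's deposited values were rescaled to that total over the 24693 genes that all 5 tables hold. A gene was examined when its mean over the 24 libraries was at least 10 CPM, which left 9952 genes. Each table had been normalised on its own, so a control group, its table and its experiment cannot be told apart. For that reason a gene was counted only when all 9 libraries lay beyond all 15, and when the nearest of the group means were at least 2-fold apart on the log2(CPM + 1) scale. The same 4 branched-chain control libraries stand in 3 tables, so their rescaled levels can be compared between those tables. Rescaling removes any factor common to a whole library, so small shifts were largely fixed in advance. They do not bound the differences between tables that hold other libraries. Between the valine table and the isoleucine or leucine table, their mean moved by a median of 0.0070 or 0.0050 on the log2 scale, by at most 0.34 or 0.30, and by at most 0.082 or 0.072 among the genes counted below.

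HSPA5 encodes BiP (GRP78), the main chaperone of the endoplasmic reticulum (ER), the compartment where secreted and membrane proteins fold. When unfolded proteins build up there, the sensors ATF6, IRE1 and PERK start the unfolded protein response: ATF6 and the IRE1 target XBP1 raise chaperone genes, and PERK acts through translation factor eIF2 and the transcription factor ATF4. ATF4 is also the effector of GCN2, the kinase that senses uncharged tRNA when an amino acid is short, and TRIB3, a pseudokinase, is a known target of ATF4 and of its partner CHOP (DDIT3).

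Most control libraries were alike in composition, with a few exceptions. Their deposited normalised counts summed to 16.1 to 20.5 times 1000000. Of 22 T cell and T leukaemia markers, 21 reached 10 CPM, their summed level was 4937 to 6689 CPM, and none passed the counting rule. No myeloid, erythroid, epithelial or NK cell marker reached a mean of 10 CPM, and 1 of 6 B cell and 2 of 6 fibroblast markers did. Summed fibroblast markers were 8.23 to 14.2 CPM in the tryptophan controls, 12.0 to 19.0 in the methionine controls, 16.5 to 866 in the histidine controls, 14.5 to 79.2 in the branched-chain controls and 17.4 to 150 in the phenylalanine controls. The highest of these were histidine control 3, phenylalanine control 1 and branched-chain control 4, the only libraries with at least 10 CPM of the collagen gene COL3A1. Phenylalanine control 1 and branched-chain control 1 had the highest ribosomal protein mRNA, with medians of 10.5 and 10.4 on the log2 scale against 9.60 over all 24, and the lowest median correlation with their own group, 0.910 and 0.939. The only B cell marker at this level, CD79A, averaged 33.0 and 21.7 CPM in the phenylalanine and branched-chain controls and 13.2 to 16.5 CPM in the other 3 groups. The part of these markers in the results was not tested. The counts over all genes and over the main lists are given below with and without the libraries named here.

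Across the 9952 genes, 44 were higher (0.442%) and 30 were lower (0.301%) in the phenylalanine and branched-chain controls than in the other 3 groups. Of the 44, 17 belong to 2 lists of ER genes (chaperones and folding enzymes, and sensors, degradation and export). Of the 30 lower genes, 3 belong to the mitosis list, among them CDK1, the kinase that drives entry into mitosis, and 2 to the DNA replication list. Without the 3 libraries high in COL3A1 the counts were 41 and 32, and without the 2 high in ribosomal protein mRNA they were 50 and 29. Just inside the 2-fold limit stood AKAP17A (2.02-fold) and POLQ (2.00-fold lower), and just outside it SIRPG (1.997-fold) and WDR76 (1.999-fold lower). Where only the absence of overlap was asked for, 214 genes lay above (2.15%) and 395 below (3.97%). Without the libraries high in COL3A1 these were 377 and 533, and without those high in ribosomal protein mRNA 450 and 534.

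HSPA5 (chr9:125234853-125241343, GRCh38) had the largest gap of the genes with at least 50 CPM. The phenylalanine controls read 2419, 2403, 2433, 2482 and 2340 CPM, and the branched-chain controls 2742, 3103, 3207 and 3176 CPM. The histidine controls read 392, 538, 617, 550 and 442 CPM, the methionine controls 527, 512, 557, 497 and 477 CPM, and the tryptophan controls 393, 417, 401, 421 and 416 CPM. The lowest high library was thus 2340 CPM and the highest low library 617 CPM, with nothing between them. The nearest group means, those of phenylalanine at 2416 ± 51.2 CPM (SD, n = 5) and methionine at 514 ± 30.1 CPM (SD, n = 5), were 4.70-fold apart. Within the high set the branched-chain mean was the higher, at 3057 ± 214 CPM (SD, n = 4), and its libraries did not overlap those of phenylalanine.

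TRIB3 (chr20:380760-397559, GRCh38) divided the groups in the same way. Its level was 947, 811, 799, 915 and 862 CPM in the phenylalanine controls and 987, 909, 789 and 868 CPM in the branched-chain controls, which overlap. It was 224, 192, 190, 205 and 158 CPM in the histidine controls and 208, 198, 203, 198 and 171 CPM in the methionine controls, which overlap as well. The tryptophan controls stood lowest, at 91.8, 95.3, 100.3, 92.8 and 97.6 CPM. The nearest means were 4.42-fold apart, and the tryptophan mean of 95.6 ± 3.51 CPM (SD, n = 5) lay below the methionine mean of 195 ± 14.1 CPM (SD, n = 5), so TRIB3 took 3 levels in the controls.

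**Figure D1:**
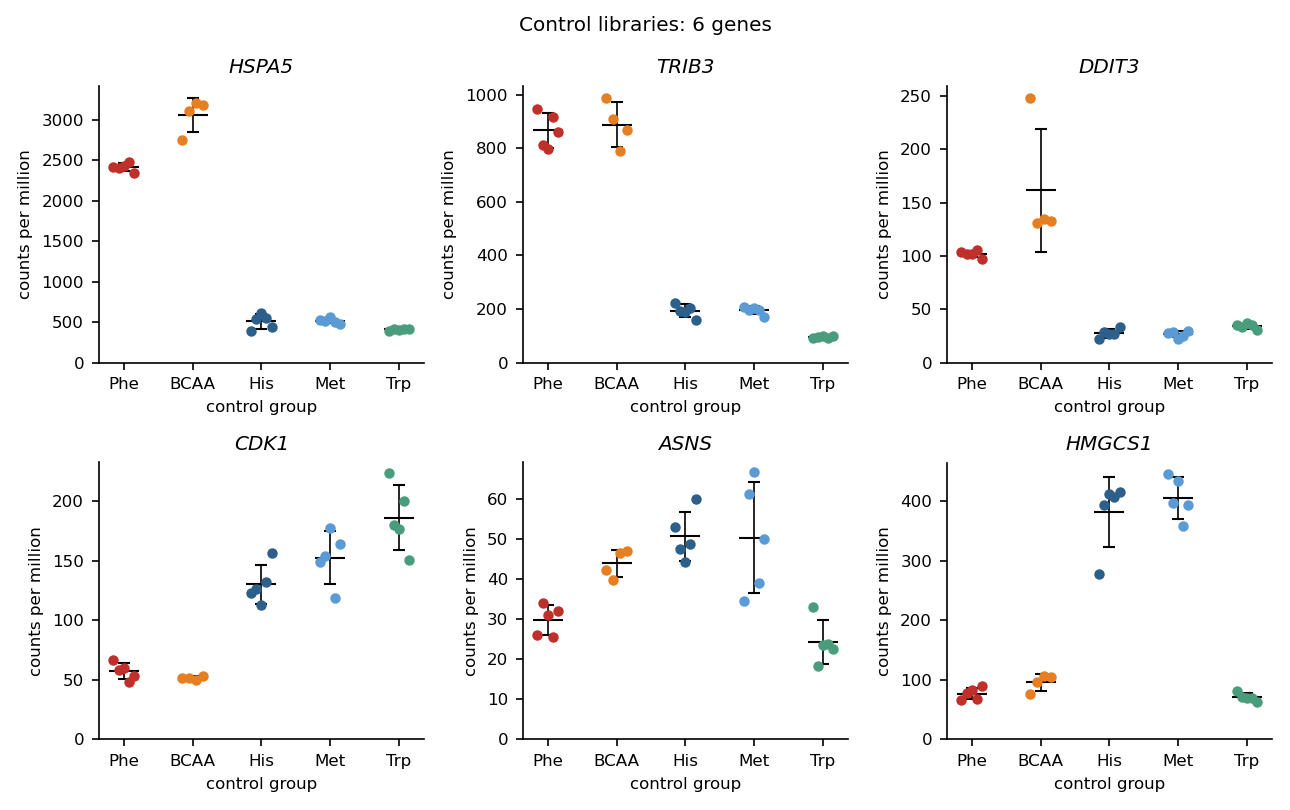
Levels of 6 genes (CPM, linear axes from 0) in the control libraries of the phenylalanine (Phe), branched-chain (BCAA), histidine (His), methionine (Met) and tryptophan (Trp) experiments. Each point is a library and the bars are the mean and SD of a group. HSPA5, TRIB3 and DDIT3 are higher, and CDK1 is lower, in both left-hand groups, while ASNS overlaps and HMGCS1 is high in the histidine and methionine controls alone.

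The promoters of the ER chaperone genes are shown because a known sequence, the ER stress element, marks several of the 44 genes. This element is read by ATF6 and XBP1 together with the factor NF-Y. RefSeq promoters (GRCh38.p14, 250 bases before to 50 after each start) were searched on both strands for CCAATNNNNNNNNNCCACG. It was found in 27 of 35116 promoters (0.0769%). Of the 44 higher genes 36 had a promoter in the table, and 5 of these held the element (13.9%): HSPA5, HSP90B1, CALR, CRELD2 and PDIA6. Of the 30 lower genes 22 had a promoter, and 0 held it, while among all examined genes 14 of 8047 did (0.174%). Below are the bases before the start of HSPA5 and stretches around the element in 3 other genes, 5′ to 3′ on the strand of the gene, with the element in capitals in whichever orientation it lies.
HSPA5, chr9:125241344-125241593, minus strand: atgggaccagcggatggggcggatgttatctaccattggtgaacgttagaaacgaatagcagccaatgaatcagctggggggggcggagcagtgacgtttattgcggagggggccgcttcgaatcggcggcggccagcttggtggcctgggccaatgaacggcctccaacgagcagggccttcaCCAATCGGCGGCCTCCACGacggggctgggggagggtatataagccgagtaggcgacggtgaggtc
HSP90B1, chr12:103930176-103930379, plus strand: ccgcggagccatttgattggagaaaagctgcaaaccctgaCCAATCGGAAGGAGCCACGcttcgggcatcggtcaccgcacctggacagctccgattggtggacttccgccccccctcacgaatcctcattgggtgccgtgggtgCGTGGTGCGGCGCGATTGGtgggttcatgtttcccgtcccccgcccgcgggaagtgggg
CRELD2, chr22:49918514-49918612, plus strand: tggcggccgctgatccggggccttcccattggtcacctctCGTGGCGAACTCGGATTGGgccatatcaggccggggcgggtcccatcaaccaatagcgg
CALR, chr19:12938359-12938442, plus strand: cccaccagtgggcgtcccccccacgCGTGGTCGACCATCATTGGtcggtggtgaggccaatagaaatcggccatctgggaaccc

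In HSPA5 the element lies 66 to 48 bases before the start, in the orientation of the gene. HSP90B1 holds 2 copies, 194 to 176 bases before the start in the orientation of the gene and 89 to 71 bases before it in the opposite one. CRELD2 and CALR hold it in the opposite orientation, 80 to 62 and 225 to 207 bases before the start. The other 2 elements searched were found in fewer of the higher genes. The CEBP-ATF element TGATGNAAN, which ATF4 dimers bind, is in 3.61% of all promoters. Of the 36 matched higher genes 3 held it (8.33%): CREB3L2, HERPUD1 and KLHDC7B. Among all examined genes 192 of 8047 did (2.39%), and of the 22 matched lower genes 0 did. The heat-shock element GAANNTTCNNGAA is in 0.490% of all promoters and in none of the matched promoters of the 44 higher genes. A match describes these letters in this window and is no evidence of binding.

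ER chaperones and folding enzymes made up the largest block of higher genes. Of the 25 listed, all were examined, 13 passed the 2-fold rule, 18 lay above without overlap and 0 lay below. Without the libraries high in COL3A1, or without those high in ribosomal protein mRNA, 13 passed and 20 lay above. Their median difference between the 2 sets was 1.53 on the log2 scale, against -0.02 over all examined genes. HSP90B1, the ER member of the HSP90 family (GRP94), was at 2886 ± 229 CPM (SD, n = 5) in the phenylalanine controls and 3100 ± 224 CPM (SD, n = 4) in the branched-chain controls. The other 3 group means lay between 628 and 784 CPM. HYOU1, the exchange factor of BiP, was 4.03-fold apart between the nearest means, at 1596 CPM in the phenylalanine and 398 CPM in the histidine controls. SDF2L1, a partner of ER J-domain proteins, was also 4.03-fold apart, but its libraries spread widely: 382 and 414 CPM in the libraries numbered 1 of the high set, and 190 to 285 CPM in the other 7.

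The disulphide isomerase PDIA4 was at 788 ± 62.2 CPM (SD, n = 5) and 890 ± 76.8 CPM (SD, n = 4) in the phenylalanine and branched-chain controls. It was at 221, 205 and 137 CPM on average in the histidine, methionine and tryptophan controls. CRELD2, a secreted disulphide isomerase of the ER, and MANF, a secreted protein that binds BiP, were 3.71-fold and 3.44-fold apart. The lectin chaperone calreticulin (CALR) had a gap of 2.72-fold: its lowest library in the high set read 4366 CPM and its highest in the low set 1821 CPM. PDIA3, the partner of calreticulin, was 2.81-fold apart, but it has a near-identical pseudogene copy whose reads the quantification may have divided, and its low-set libraries ranged from 20.8 to 131 CPM.

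Among the genes for sensors, ER-associated degradation and export, 21 of 23 listed were examined, and 4 passed the 2-fold rule. SEL1L and SYVN1, the adaptor and ubiquitin ligase (HRD1) of the main degradation complex, were 2.98-fold and 2.55-fold apart. HERPUD1, which organises that complex, was 2.09-fold apart, and CREB3L2, a membrane-bound transcription factor related to ATF6, 2.10-fold. In all, 9 members lay above without overlap and 0 below, with a median difference of 0.67 on the log2 scale. Without the libraries high in COL3A1 3 passed and 9 lay above, and without those high in ribosomal protein mRNA 4 passed and 12 lay above. Libraries numbered 1 were the lowest of their group for SEL1L and CREB3L2: branched-chain control 1 read 301 CPM of SEL1L against 530 to 570 CPM in the other 3, and phenylalanine control 1 read 75.4 CPM of CREB3L2 against 118 to 135 CPM in the other 4.

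Among the 27 higher genes outside the ER lists, several have no known place in the unfolded protein response, and those in this paragraph were named after their values were seen. KLHDC7B, a kelch-repeat gene, had the largest gap of all, 12.0-fold on the log2(CPM + 1) scale. Its means were 33.7 and 17.0 CPM in the phenylalanine and branched-chain controls and 0.176 to 0.499 CPM in the low set. Those low-set means are below the pseudocount of 1, so the size of the fold depends on the pseudocount. So few reads also make the fold imprecise, and the gene reached the mean of 10 CPM through the high set alone. TREML2, a surface receptor of the TREM family, was 4.15-fold apart, from means of 48.5 and 49.8 CPM to means of 8.34 to 11.0 CPM. Signalling genes followed: RGS16, a regulator of G protein signalling (3.60-fold), GFRA1, a receptor for the growth factor GDNF (2.71-fold), and S1PR3, a sphingosine-1-phosphate receptor (2.55-fold). MZB1, a cofactor of the ER chaperone GRP94, and FKBP2, an ER prolyl isomerase, are ER proteins that the lists did not hold, and their gaps were 2.71-fold and 2.63-fold.

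The ATF4 list followed the division only in part. Of 28 listed genes 23 were examined, 4 passed the rule, the same 4 were those above without overlap, and the median difference was 0.25 on the log2 scale. Without the libraries high in COL3A1, or without those high in ribosomal protein mRNA, 3 passed and 7 lay above without overlap. Besides TRIB3 they were DDIT3 (CHOP), PPP1R15A (GADD34, which brings the phosphatase to eIF2) and CEBPB, a bZIP partner of ATF4. DDIT3 read 103, 102, 101, 106 and 97.2 CPM in the phenylalanine controls and 248, 131, 134 and 133 CPM in the branched-chain controls. Its level was 21.9 to 33.5 CPM in the histidine, 22.3 to 29.9 CPM in the methionine and 30.2 to 36.6 CPM in the tryptophan controls. All 9 libraries thus lay above all 15, and branched-chain control 1 stood apart even within its group. PPP1R15A was at 209 ± 6.12 CPM (SD, n = 5) and 207 ± 8.67 CPM (SD, n = 4) in the high set, against 59.0 to 89.3 CPM for the means of the low set, a gap of 2.31-fold.

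Several other amino acid response genes of the same list did not pass the rule. Both high-set group means lay above the other 3 for 10 of the 23 examined members and below them for 1. Over all 9952 genes these were 1978 (19.9%) and 2254. ASNS, asparagine synthetase, averaged 29.7 CPM in the phenylalanine, 43.9 in the branched-chain, 50.7 in the histidine, 50.3 in the methionine and 24.3 in the tryptophan controls, so the high set fell inside the range of the low set. CHAC1, which degrades glutathione, averaged 20.4, 33.3, 36.5, 36.3 and 13.0 CPM in the same order. SESN2, a leucine sensor acting on mTORC1, and SLC7A11, the cystine transporter, had higher means in both high groups, but with gaps of 1.17-fold each and with overlap. Only WARS1, tryptophanyl-tRNA synthetase, passed the rule among 20 cytosolic tRNA synthetases, at 2.03-fold, and it no longer passed with the deposited scaling, with a pseudocount of 5 or without tryptophan control 5.

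**Figure D2:**
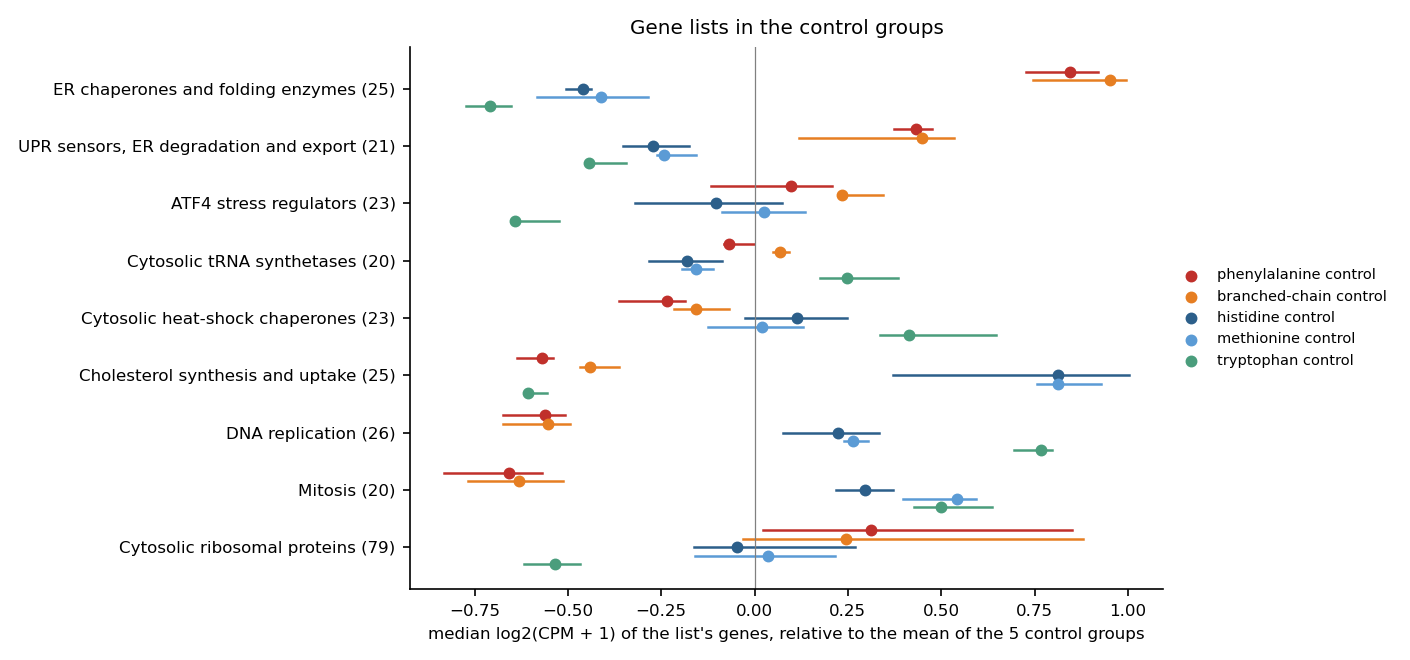
Median log2(CPM + 1) of the genes of 9 lists (number of genes examined in brackets) in each control group, relative to the mean of the 5 groups. Points are medians of group means and lines run from the lowest to the highest library median. ER chaperones reach 0.85 and 0.95 in the phenylalanine and branched-chain controls and -0.41 to -0.71 in the others, while cholesterol synthesis is high in the histidine and methionine controls alone.

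Genes of the cell cycle were lower in the phenylalanine and branched-chain controls. Of 20 mitosis genes, 3 passed the 2-fold rule and 18 lay below without overlap, with a median difference of -1.06 on the log2 scale. Of 26 DNA replication genes, 2 passed and 19 lay below without overlap, with a median of -0.95. Without the libraries high in COL3A1, 4 mitosis and 3 replication genes passed and 18 and 21 lay below. Without those high in ribosomal protein mRNA the same numbers passed and 20 of each lay below. CDK1 read 66.1, 58.1, 60.1, 48.3 and 53.4 CPM in the phenylalanine controls and 51.6, 51.1, 50.1 and 53.2 CPM in the branched-chain controls. Its level was 113 to 157 CPM in the histidine, 118 to 178 CPM in the methionine and 150 to 224 CPM in the tryptophan controls, so the groups did not overlap. The other mitosis genes that passed were CCNA2, the cyclin partner of CDK1 and CDK2, at 2.13-fold, and DLGAP5, a spindle protein, at 2.25-fold.

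MCM6, a subunit of the replicative helicase, averaged 142 ± 15.6 CPM (SD, n = 5) and 154 ± 13.6 CPM (SD, n = 4) in the phenylalanine and branched-chain controls. It averaged 319 and 332 CPM in the histidine and methionine controls and 459 ± 24.1 CPM (SD, n = 5) in the tryptophan controls. PCNA, the sliding clamp of DNA polymerase, was 2.03-fold lower. With the deposited scaling in place of equal totals, neither MCM6 nor PCNA kept a 2-fold gap and 0 replication genes passed. MCM10 and DTL, which act in origin firing and in replication-coupled protein degradation, were 2.14-fold and 2.41-fold lower, and the kinetochore scaffold KNL1 was 2.20-fold lower. ASPM, a spindle pole protein, and PBK, a mitotic kinase, were 2.27-fold and 2.54-fold lower. TUBA1B, an alpha-tubulin, showed the largest gap of the lower genes, at 2.65-fold, from means of 658 and 638 CPM to means of 1742 to 1939 CPM, but other alpha-tubulin genes share much of its sequence. In bulk libraries, fewer cells in a phase of the cycle and less mRNA per cell cannot be told apart.

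No gene of the lists of cytosolic heat-shock chaperones (23 examined), ribosomal proteins (79 examined), cholesterol synthesis (25 examined) or glycolysis (22 examined) passed the 2-fold rule. Few genes of any kind did (0.442% higher and 0.301% lower). The heat-shock list had a median difference of -0.31 on the log2 scale, with 3 members below without overlap (3.97% of all genes) and 0 above (2.15%). For glycolysis these were -0.23, 1 and 0. The ribosomal protein list had a median difference of 0.46 on the log2 scale, with 0 members free of overlap. For 72 of its 79 members both high-set group means lay above the other 3, as they did for 1978 of all 9952 genes (19.9%). Relative to the mean of the 5 groups, the list stood at 0.31 and 0.25 in the phenylalanine and branched-chain controls, at -0.05 and 0.04 in the histidine and methionine controls and at -0.54 in the tryptophan controls. Its highest libraries were the 2 named above, phenylalanine control 1 and branched-chain control 1.

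Sterol genes sorted the controls differently. HMGCS1, which makes the substrate of the rate-limiting step of cholesterol synthesis, read 65.6 to 88.9 CPM in the phenylalanine, 75.0 to 106 CPM in the branched-chain and 62.4 to 81.6 CPM in the tryptophan controls. It read 277, 394, 411, 407 and 416 CPM in the histidine controls and 446, 398, 434, 358 and 394 CPM in the methionine controls. SCD, the stearoyl-CoA desaturase, was likewise high in the histidine and methionine controls, with means of 3349 and 3006 CPM, against 783, 977 and 560 CPM in the phenylalanine, branched-chain and tryptophan controls. When the tryptophan controls were left out, 17 of the 25 cholesterol genes passed the 2-fold rule as lower in the phenylalanine and branched-chain controls, against 0 with them. Over all genes that omission gave 92 lower genes of 9993 (0.921%), against 30 with the tryptophan controls.

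Some genes set the tryptophan controls apart from all other controls. HSPA6, a heat-inducible cytosolic HSP70, read 0.744, 0.742, 0.794, 0.432 and 1.24 CPM there, and its lowest library elsewhere read 53.1 CPM. TXNIP, the thioredoxin-binding arrestin that restrains glucose uptake, read 142 to 172 CPM in the tryptophan controls, and 14.0 to 92.1 CPM elsewhere, where the highest library was histidine control 3. HSPA6 has a close pseudogene relative, so its absolute level is uncertain.

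Over all genes, then, the controls did not form a pair of states. The phenylalanine and branched-chain controls differed by at least 2-fold in 16 of 9952 genes, and the histidine and methionine controls in 22. Between those 2 pairs of groups, 281 to 382 genes differed 2-fold. The tryptophan controls differed 2-fold from the histidine and methionine controls in 1000 and 973 genes, and from the phenylalanine and branched-chain controls in 1089 and 1113. The division into high and low HSPA5 and TRIB3 thus places the tryptophan controls with groups from which they differed in about as many genes as from the others.

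**Figure D3:**
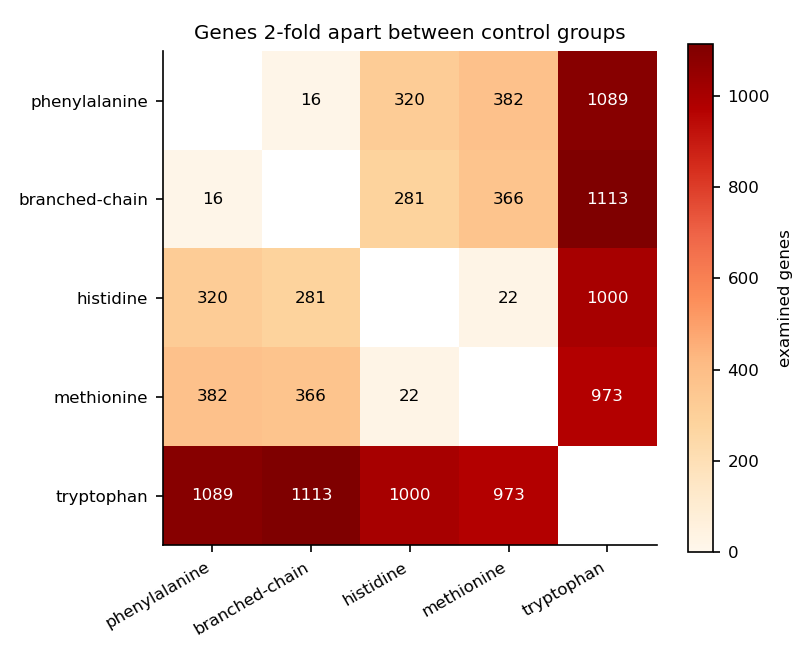
Number of the 9952 examined genes whose group means differ by at least 2-fold on the log2(CPM + 1) scale, for each of the 10 pairs of control groups. The phenylalanine and branched-chain pair (16) and the histidine and methionine pair (22) are the closest, and every pair with tryptophan is at 973 or above.

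The 35 restricted libraries did not enter the rule that counted the genes. They are set beside the controls to describe which set each restricted group resembled. The division and the gene lists were chosen with earlier results of these data known, so this is no independent check. Each restricted group was set beside the same 15 low-set control libraries, which did take part in the choice, so the 7 counts share those libraries. The genes were chosen for extreme values in these 15, so restricted libraries lying beyond them is partly fixed by the choice. The share of all examined genes, given beside each count below, was not chosen in that way and is no like baseline. HSPA5 in the isoleucine restricted libraries read 2921, 3199, 2828, 3198 and 3118 CPM, overlapping the branched-chain controls. It read 456, 441, 453, 436 and 462 CPM in the phenylalanine restricted libraries and 477, 429, 474, 506 and 505 CPM in the valine restricted libraries, which overlap the low-set controls. The leucine restricted libraries read 249, 285, 273, 287 and 251 CPM, below every control library. The histidine, methionine and tryptophan restricted libraries read 204 to 235, 415 to 478 and 223 to 251 CPM.

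TRIB3 did not travel with HSPA5 in these libraries. It read 1091, 1293, 1040, 1071 and 1083 CPM in the phenylalanine restricted, 613, 789, 618, 525 and 541 CPM in the leucine restricted and 1285, 1276, 1205, 1322 and 1233 CPM in the valine restricted libraries. It read 757 to 853 CPM in the isoleucine, 369 to 461 CPM in the histidine, 929 to 1042 CPM in the methionine and 649 to 708 CPM in the tryptophan restricted libraries. All 35 restricted libraries therefore exceeded the 224 CPM of the highest low-set control, although only the isoleucine group had HSPA5 above 617 CPM, the highest low-set control for that gene.

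**Figure D4:**
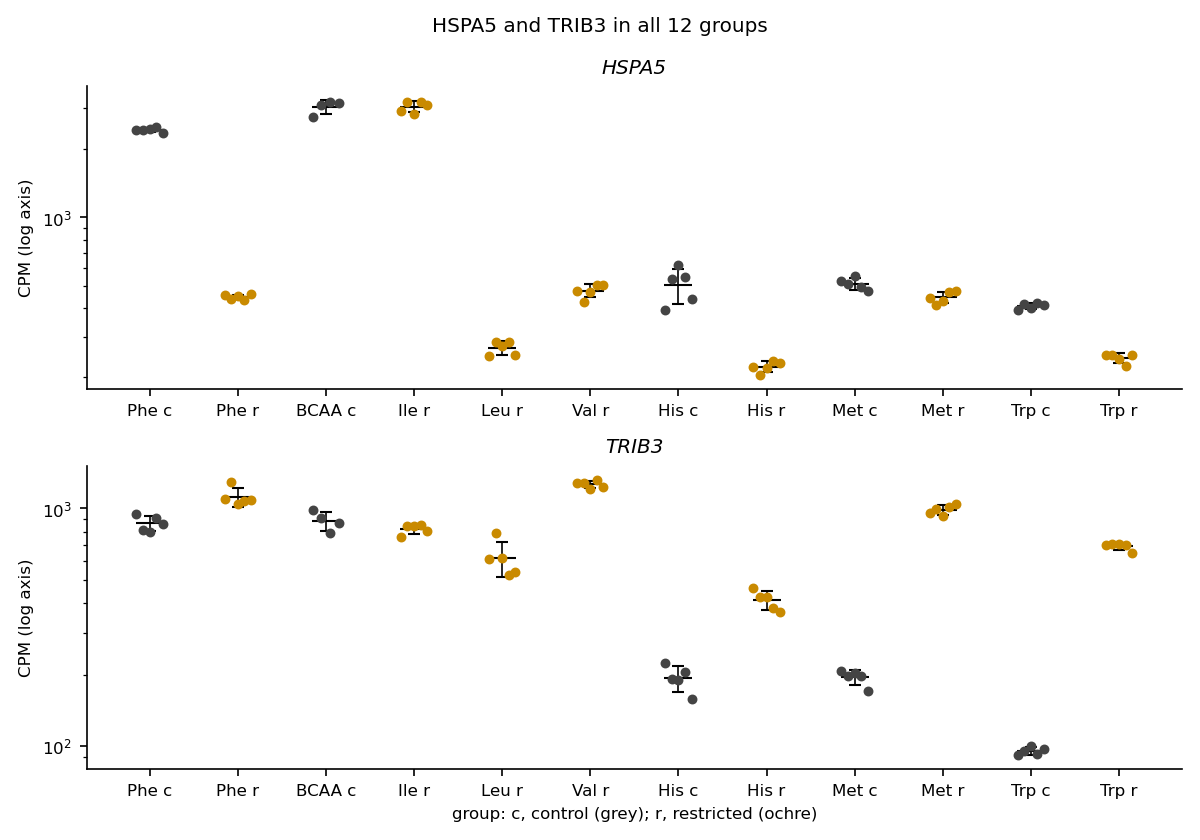
HSPA5 and TRIB3 (CPM, log axes) in the control (c, grey) and restricted (r, ochre) libraries of all 12 groups, each point a library, with mean and SD. HSPA5 is high only in the phenylalanine controls, the branched-chain controls and the isoleucine restricted libraries, while TRIB3 is also high in every restricted group relative to the histidine, methionine and tryptophan controls.

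The 44 higher genes were counted in each restricted group, with the ER list genes apart from the others. In the isoleucine restricted libraries all 17 ER list genes and all 27 other genes lay above the 15 low-set controls, beside 5.8% of all examined genes. In the phenylalanine restricted libraries 5 of 17 and 22 of 27 did (9.72% of all genes), in the leucine restricted libraries 2 of 17 and 21 of 27 (4.75%), and in the valine restricted libraries 3 of 17 and 20 of 27 (10.5%). The 27 include DDIT3, PPP1R15A, CEBPB, WARS1, RGS16, GFRA1 and S1PR3, which lay above in each of these 4 groups. MZB1 and FKBP2, counted among the 27, lay above in the isoleucine group and overlapped the low-set controls in the other 3. HSP90B1 lay below all 15 low-set controls in the phenylalanine, leucine and valine restricted libraries, whereas in the controls of those experiments its nearest group means were 3.67-fold above.

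Restricted groups whose own controls belonged to the low set gave related counts. In the methionine restricted libraries 4 of 17 ER genes and 21 of 27 others lay above the low-set controls (19.7% of all genes), in the tryptophan restricted libraries 2 of 17 and 19 of 27 (9.67%), and in the histidine restricted libraries 1 of 17 and 13 of 27 (8.68%). The ER genes were thus the fewer in each, as in phenylalanine, leucine and valine.

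The 30 lower genes were low in most restricted groups. All 30 lay below the 15 low-set controls in the isoleucine (6.04% of all genes) and valine (8.11%) restricted libraries, 29 in phenylalanine (7.26%), 28 in leucine (5%) and 27 in methionine (9.11%). In the tryptophan and histidine restricted libraries 18 (3.83%) and 6 (3.68%) did. CDK1, for example, read 54.3 to 64.8 CPM in the phenylalanine restricted, 56.5 to 70.8 CPM in the leucine restricted and 92.5 to 105 CPM in the histidine restricted libraries. With trimmed mean factors in place of equal totals the histidine count was 12 of 30 and the methionine count of ER genes 2 of 17.

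**Figure D5:**
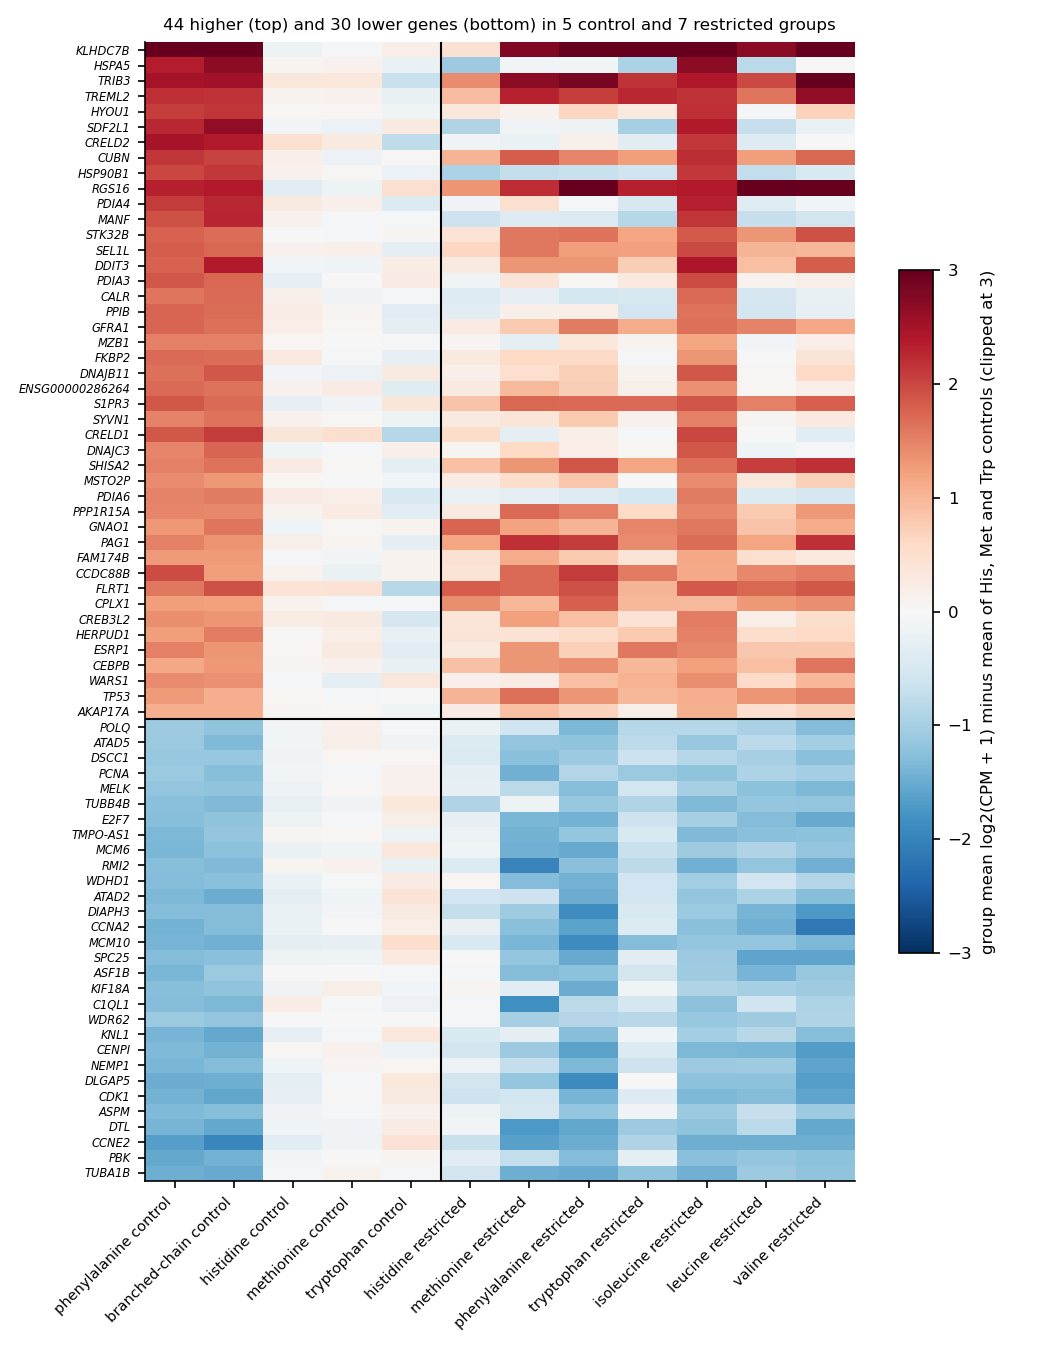
Group means of the 44 higher (top) and 30 lower genes (bottom) in the 5 control groups (left of the line) and 7 restricted groups (right), as log2(CPM + 1) minus the mean of the histidine, methionine and tryptophan controls. Red is higher and blue lower, clipped at 3. The isoleucine restricted column repeats the branched-chain controls, while in the phenylalanine, leucine and valine restricted columns ER genes such as HSPA5 and HSP90B1 lose the red and the lower genes stay blue.

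Within a table the restricted and control libraries can be tested, here with limma on log2(normalised count + 1) and Benjamini-Hochberg adjustment over all genes of the table. Since the phenylalanine and branched-chain controls chose the genes, a lower value against them is partly fixed by that choice and supports nothing further. HSPA5 fell by 2.54 on the log2 scale (SE 0.078, limma adjusted p = 2.99e-09) under phenylalanine restriction, by 3.56 (SE 0.093, limma adjusted p = 1.76e-10) under leucine restriction and by 2.79 (SE 0.109, limma adjusted p = 1.49e-08) under valine restriction. Under isoleucine restriction its difference was -0.05 (SE 0.094, limma adjusted p = 0.894), with overlapping libraries. The 3 branched-chain comparisons share their 4 controls.

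Of the 25 ER chaperone genes, 20 fell under phenylalanine restriction (6.09% of 17021 tested genes fell and 4.11% rose), 20 under leucine restriction (4.33% fell and 3.41% rose, of 16488) and 22 under valine restriction (7.36% fell and 5.13% rose, of 16771), and 0 rose in any of the 3. Under isoleucine restriction 0 of 16623 genes passed in limma (0% lower and 0% higher), and the smallest limma adjusted p was 0.0582. An unadjusted limma p under 0.05 was found for 872 of the 16623, near the share of 0.05 that chance alone would give. Of the 44 higher genes, 26 fell and 2 rose under phenylalanine restriction, 34 fell and 1 rose under leucine restriction, and 27 fell and 1 rose under valine restriction. Leaving out phenylalanine restricted 1 or 4 lowered the count of all called genes from 1736 to 1128 or 1103, but the ER count stayed between 19 and 22 whichever library was left out.

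Few of the 30 lower genes were called within those tables. Under phenylalanine restriction 3 fell and 0 rose (6.09% of all tested genes fell and 4.11% rose). Under leucine restriction 0 fell and 3 rose (4.33% and 3.41%), and under valine restriction 1 fell and 0 rose (7.36% and 5.13%). Among those called, DTL rose by 0.67 under leucine (limma adjusted p = 0.0040) and CCNA2 fell by 0.99 under valine restriction (limma adjusted p = 0.00142). The controls of these tables took part in choosing the genes as low, so the counts support nothing further. CDK1 differed by -0.09 (SE 0.109, limma adjusted p = 0.673), 0.21 (SE 0.104, limma adjusted p = 0.229) and -0.15 (SE 0.145, limma adjusted p = 0.543) on the log2 scale in the 3 tables, where a missed threshold does not show equal levels. In tables with low-set controls, CDK1 fell by 0.43 (SE 0.088, limma adjusted p = 0.00269) under histidine, by 0.66 (SE 0.106, limma adjusted p = 0.000122) under methionine and by 0.91 (SE 0.113, limma adjusted p = 1.18e-05) under tryptophan restriction. Those controls took part in the choice too, and CDK1 was chosen as high in them, so these falls are partly fixed by it and support nothing further.

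TRIB3 was tested in the same tables. It is a marker of the division, so both its rises against low-set controls and its differences from high-set controls are partly fixed by that choice and support nothing further. Against low-set controls it rose by 1.06 (SE 0.088, limma adjusted p = 2.03e-06) under histidine, by 2.21 (SE 0.066, limma adjusted p = 1.27e-11) under methionine and by 2.61 (SE 0.048, limma adjusted p = 1.87e-13) under tryptophan restriction. Against high-set controls its differences were 0.24 (SE 0.109, limma adjusted p = 0.189) under phenylalanine, 0.40 (SE 0.136, limma adjusted p = 0.0753) under valine and -0.16 (SE 0.115, limma adjusted p = 0.797) under isoleucine restriction. The phenylalanine and valine calls depended on the setting. With equal totals TRIB3 passed in both, at 0.36 (limma adjusted p = 0.0232) and 0.51 (limma adjusted p = 0.00408), and in CPM all 5 restricted libraries of each lay above their controls. For valine it also passed with the replicate number as a block (0.39, limma adjusted p = 0.0457) and with branched-chain control 1 left out (0.52, limma adjusted p = 0.0044). Under leucine restriction TRIB3 fell by 0.59 (SE 0.149, limma adjusted p = 0.0332), a call that was lost without leucine restricted 1, 3, 4 or 5 or branched-chain control 3 or 5 (adjusted p = 0.062 to 0.0901). The differences in response between amino acids were not tested.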

How the data were processed

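Strand-specific Illumina libraries were made from 1 µg of total RNA that had been purified on columns, per the labels' protocols. Each amino acid has a table of normalised counts made by the authors, a continuous signal. Reads were handled with FastQC 0.11.9, kallisto 0.50.1 and DESeq2 1.44.0 on GRCh38, per the submitters' processing notes. Annotation release, settings and strand handling: not given in the sources used here. Genes with near-identical copies are therefore uncertain. Low values were whole multiples of a step (within 0.1) in 70.5 to 86.0% of cases, so whole reads were not recovered, the depth is unknown and no count model was fitted. No library pair had identical values.

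CPM over the 24693 shared genes, a mean of at least 10 CPM and a pseudocount of 1 were used for the controls. Tests within a table used limma 3.58.1 in R 4.3.3 (lmFit, eBayes with trend, two-sided, mean normalised count of 10 or more, called at an adjusted p below 0.05). Both procedures were run on simulated data with known shifts. Apart from those shifts the simulated control groups shared a common mean per gene, so this check does not cover differences between tables. The groups, gene lists and rules were chosen with earlier results of these data known.

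Named were HSPA5 and TRIB3, the 12 largest gaps in each direction among genes with at least 50 CPM on the high side, the 3 largest gaps of each list, and 17 further genes of these pathways. KLHDC7B, CEBPB, PDIA6 and the genes beside the 2-fold limit were named after their values were seen. Some are left out for length. Same-numbered libraries of a table deviated with correlations of -0.186 to 0.185, so the main tests did not pair them. Weak correlations cannot show whether the cultures were paired by design. Alternatives were other pseudocounts, filters, scalings and fold limits, the replicate block, and groups or libraries left out.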

Additional observations from a re-analysis of the deposited data

Results flagged for a closer look

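Single control libraries that stood far from the rest of their group are given with the range of the other libraries, in CPM. Among 210 groups of values examined (42 genes in 5 groups), 25 held such a library, where chance gives about 1 in 20. The 42 genes include COL3A1, used above to set libraries aside, and the genes of a library are not independent. The rate of 1 in 20 is therefore no like baseline. Of the 25, 10 came from phenylalanine control 1 and branched-chain control 1.

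Branched-chain control 1 read 819 for MANF (others 641 to 657), 301 for SEL1L (530 to 570), 248 for DDIT3 (131 to 134), 164 for PDIA3 (245 to 258) and 16.3 for KNL1 (52.3 to 55.6). Phenylalanine control 1 read 75.4 for CREB3L2 (118 to 135), 115 for MCM6 (141 to 152), 229 for PCNA (165 to 173), 37.1 for TXNIP (14.2 to 16.4) and 41.3 for COL3A1 (0 to 0.209). These 2 libraries also had the highest ribosomal protein mRNA, and its part in these values was not tested.

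COL3A1 read 479 in histidine control 3 (others 0.641 to 1.22), 32.0 in branched-chain control 4 (0 to 0.955) and 1.06 in tryptophan control 3 (0.0531 to 0.0961). Histidine control 3 also read 92.1 for TXNIP (22.5 to 30.0). Branched-chain control 4 read 70.7 for CCNA2 (62.2 to 62.6), and phenylalanine control 4 read 50.8 (59.7 to 62.0).

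Methionine control 1 read 1549 for CALR (1404 to 1430), 255 for NEMP1 (209 to 221) and 137 for MCM10 (99.3 to 110), and methionine control 5 read 171 for TRIB3 (198 to 208). HMGCS1 was 277 in histidine control 1 (394 to 416), ASPM 287 in histidine control 4 (238 to 249), WDR62 46.9 (64.9 to 71.7) and WARS1 72.1 (82.7 to 86.3) in histidine control 5, and MCM6 500.1 in tryptophan control 1 (443 to 459).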

How the results depend on the processing

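No gap of a named gene that passed the rule changed sign under the alternatives run. A gap is set to 0 once group means interleave, so a change of sign needs all of them to cross and was hardly possible. Of 1586 values of all named genes, those that did not pass included, 1555 moved by less than the spread between libraries and 31 by more. The 44 higher genes became 21 with a mean of at least 100 CPM, 105 with a 1.5-fold and 6 with a 4-fold limit. The 30 lower genes became 17 with a pseudocount of 5, 13 with a mean of at least 100 CPM, 207 with a 1.5-fold and 0 with a 4-fold limit, and 59, 55, 61 and 92 without the phenylalanine, branched-chain, histidine or tryptophan group. Leaving out single libraries gave 39 to 47 higher and 24 to 35 lower genes. Leaving out a whole group removes conditions from the rule, so a rise in the count is then largely fixed in advance. The cause of the other shifts was not tested beyond the looser or stricter limit itself. Other scalings moved the median over all genes by at most 0.022 on the log2 scale.

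With single libraries left out, limma called 3847 to 5065 genes for histidine, 8370 to 8966 for methionine, 1103 to 2542 for phenylalanine, 7900 to 8312 for tryptophan, 0 to 1 for isoleucine, 511 to 1674 for leucine and 1110 to 2657 for valine. The leucine count fell by over 1.5 times without leucine restricted 1, 3, 4 or 5 or branched-chain control 3 or 5, and the valine count without valine restricted 1, 3 or 5 or branched-chain control 5. The 1 isoleucine gene appeared without branched-chain control 3 or 5, and 1 was called with no filter on low values. With the replicate number as a block, phenylalanine gave 803 and leucine 834 genes, and TRIB3 under valine restriction passed (0.39, limma adjusted p = 0.0457). With equal totals TRIB3 also passed under phenylalanine (0.36, limma adjusted p = 0.0232) and valine restriction (0.51, limma adjusted p = 0.00408), as it did for valine without branched-chain control 1 (0.52, limma adjusted p = 0.0044). The block changed no other call of HSPA5 or TRIB3. Omission of the libraries high in COL3A1 or ribosomal protein mRNA, and trimmed mean scaling of the restricted libraries, were chosen after seeing the data.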
